A study of Homo sapiens with 8 samples.

Results

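miR-21 was by far the most abundant microRNA (miRNA) in H1299 cells, and both products of its hairpin, hsa-miR-21-5p and hsa-miR-21-3p (miR-21-5p and miR-21-3p from here on), were described across 8 small RNA libraries. The 2 members were taken by name from the human miRNA features of the 3 deposited tables, which hold 945 such features in all. H1299 is an established human non-small cell lung carcinoma line, derived from a lymph node. The libraries came from H1299 cells carrying an empty vector (EV) and from H1299 cells stably expressing a mutant p53 protein, R273H, from a CMV promoter (R273H). Each line was left untreated or was given etoposide, an inhibitor of topoisomerase II that breaks DNA, for 24 h. Each of the 4 groups had 2 libraries. The EV cells were obtained from another laboratory, while the R273H line was grown from transfected colonies that resisted G418, so the origin of the cells and the mutant cannot be told apart. The paper reports that short tandem repeat profiling found both lines isogenic. It also shows the mutant protein in the R273H line by immunoblot. The labels give the etoposide dose as 10 µM in one field and as 10 mM in another. Small RNA libraries hold no measure of the mutant's messenger RNA, so the labels could not be checked on it.

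A miRNA hairpin is cut by Drosha in the nucleus and by Dicer in the cytoplasm into a short duplex. An Argonaute protein keeps mainly one strand of it, the guide, and pairs its seed (bases 2 to 8 from the 5′ end) with messenger RNAs, which are then degraded or translated less. In miR-21 the guide is the 5p arm. It is high in many solid tumours, lung carcinoma included, where it represses tumour suppressors such as PDCD4, and its gene is known to be induced by AP-1 and STAT3.

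MIR21 lies on the plus strand of chromosome 17, at chr17:57918627-57918698 in GRCh37, within the gene of VMP1, a membrane protein of autophagy. miR-21-5p takes up chr17:57918634-57918655. Of 20 annotated VMP1 transcripts, 8 hold the hairpin in an untranslated part of an exon, 2 hold it in an exon of a retained-intron transcript, and 10 do not include it. The hairpin has 72 bases, and its predicted fold had a minimum free energy of -34.60 kcal/mol, with 19 of the 22 bases of miR-21-5p paired. The mature sequences below are shown because the seed defines which other miRNA can pair with the same targets. They are the RefSeq sequences of GRCh38.p14, written 5′ to 3′ with the seed in capitals. RefSeq gave a mature sequence for 825 of the 945 measured miRNAs, and 2 of its mature miRNAs carry this seed.
miR-21-5p: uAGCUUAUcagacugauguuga
miR-590-5p: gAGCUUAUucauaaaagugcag

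The libraries held 234545 to 579367 reads on annotated features, of which 90.8% to 98.2% were on miRNAs. The libraries of each group differed beyond counting noise, since their miRNA reads gave a chi-square of 32.3 to 70.4 for every degree of freedom, the highest in etoposide-treated EV. Of 10 marker miRNAs of liver, muscle, blood cells and neurons, 8 were found by name, with 0 to 18 reads each in a library, the highest for the muscle miRNA miR-1. Among them 7, all but miR-451a of red blood cells, had 0 reads in at least 1 library. Their summed level was 20.0 to 46.6 RPM (reads scaled to equal totals of miRNA reads) in untreated EV, 30.4 to 122 in etoposide-treated EV, 31.0 to 111 in untreated R273H and 2.87 to 23.7 in etoposide-treated R273H, and its part in the results was not tested.

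miR-21-5p ranked first in each of the 8 libraries. It had 222030 and 103103 reads in untreated EV, 71440 and 161170 in etoposide-treated EV, 198038 and 155560 in untreated R273H, and 189285 and 106655 in etoposide-treated R273H. As a share of all miRNA reads of the library this was 41.3% (95% Wilson interval 41.2 to 41.5) and 41.3% (41.1 to 41.5) in untreated EV. In etoposide-treated EV the share was 33.5% (33.3 to 33.7) in replicate 1 and 44.5% (44.3 to 44.7) in replicate 2, the highest of all libraries. In untreated R273H it was 43.8% (43.7 to 43.98) and 38.2% (38.1 to 38.4). In etoposide-treated R273H it was 37.4% (37.2 to 37.5) and 30.6% (30.4 to 30.7), the lowest of all. The intervals cover only the counting error of reads, each taken as separate. Copies made by PCR cannot be told from separate molecules, so the intervals may be too narrow. In 3 of the 4 groups the replicates lay further apart than the intervals. The pair of untreated EV libraries had shares within counting error of each other (chi-square 0.402, 1 degree of freedom).

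**Figure D1:**
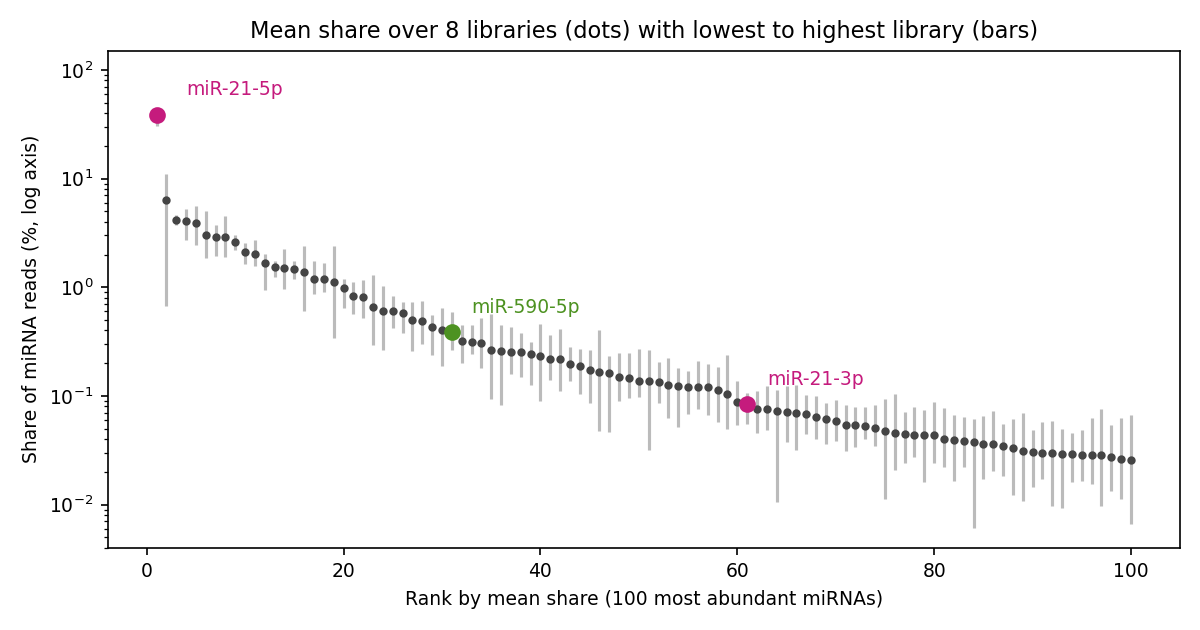
Share of miRNA reads (percent, log axis) of the 100 most abundant miRNAs, ordered by their mean share over the 8 libraries; dots are means and bars run from the lowest to the highest library. miR-21-5p stands apart at 30.6% to 44.5%, miR-590-5p with the same seed lies at 0.264% to 0.594%, and miR-21-3p lies at rank 61.

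The next most abundant miRNA depended on the line. In the 4 EV libraries it was miR-31-5p, and miR-21-5p had 7.01 to 8.88 times its reads. In the 4 R273H libraries it was miR-29b-3p, a miRNA that targets collagens and DNA methyltransferases, and miR-21-5p had 3.46 to 4.53 times its reads. Between 9 and 23 of the next miRNAs had to be summed to reach the reads of miR-21-5p. The 5 next by mean share were miR-29b-3p, miR-23a-3p, miR-30c-5p, miR-31-5p and miR-100-5p, with 21.5% of the miRNA reads together, against 38.8% for miR-21-5p alone. The exponential of the Shannon entropy, which gives the number of equally abundant miRNAs that would make a library as even, was 13.99 to 27.8 with miR-21-5p and 32.3 to 49.4 without it.

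miR-21-3p was rare beside its partner but not rare among the weaker arms of hairpins. Its reads were 553 and 267 in untreated EV, 212 and 372 in etoposide-treated EV, 248 and 301 in untreated R273H, and 285 and 260 in etoposide-treated R273H. By mean share it was 61st of 945 miRNAs. Of 230 miRNAs that were the weaker arm of a pair matched by name, it was second only to miR-31-3p. Its share was 0.103% (0.0948 to 0.112) and 0.107% (0.0948 to 0.120) in untreated EV, and 0.0995% (0.0870 to 0.114) and 0.103% (0.0928 to 0.114) in etoposide-treated EV. In untreated R273H it was 0.0549% (0.0485 to 0.0622) and 0.0740% (0.0661 to 0.0828), and in etoposide-treated R273H 0.0562% (0.0501 to 0.0632) and 0.0745% (0.0660 to 0.0842). Each EV library was above each R273H library. The 4 EV shares differed by less than counting error (chi-square 0.617, 3 degrees of freedom), while those of R273H differed by more (chi-square 23.1, 3 degrees of freedom), with replicate 1 below replicate 2 in both treatments.

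The difference between lines was tested on these shares. For miR-21-3p the shares averaged 0.103% ± 0.0030 over the EV libraries and 0.0649% ± 0.0108 over the R273H libraries (SD, n = 4 each), 0.630 times as high (exact two-sided permutation test, p = 0.0286, the smallest p that 4 libraries against 4 allow, adjusted p = 0.171 over 6 tests). The difference was -0.0405 percentage points among untreated and -0.0357 among etoposide-treated libraries. Of the 334 miRNAs with a mean of at least 3 reads, 16.2% had shares that did not overlap between lines, and 6.89% did so with the lower shares in R273H. For miR-21-5p the mean share was 40.2% ± 4.66 in EV and 37.5% ± 5.44 in R273H, and the lines overlapped (exact permutation test, p = 0.486, adjusted p = 0.720). By treatment, the share of miR-21-5p was 41.2% ± 2.28 in the 4 untreated and 36.5% ± 6.01 in the 4 etoposide-treated libraries (exact permutation test, p = 0.200, adjusted p = 0.400). The difference was -2.29 percentage points in EV, where the treated replicates fell on both sides of the untreated ones, and -7.07 in R273H, where both treated libraries were below both untreated ones. Such a separation of 2 libraries from 2 was common, since 39.3% of 341 miRNAs had it in R273H on normalized counts, in either direction. The share of miR-21-3p was 0.0847% ± 0.0247 untreated and 0.0833% ± 0.0220 with etoposide (exact permutation test, p = 0.857, adjusted p = 0.857).

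**Figure D2:**
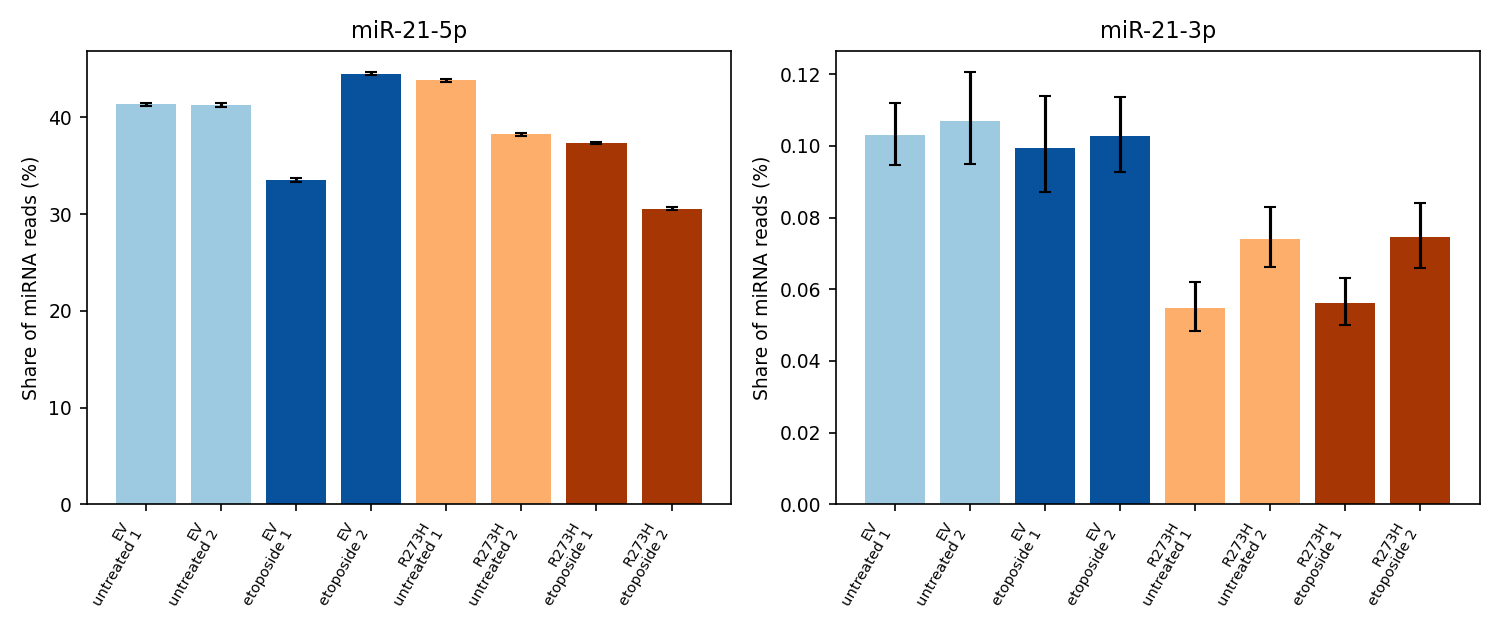
Share of all miRNA reads (percent) held by miR-21-5p (left) and miR-21-3p (right) in each of the 8 libraries; bars are single libraries, with 95% Wilson intervals. miR-21-3p is at or above 0.0995% in the EV libraries and at or below 0.0745% in the R273H libraries, while miR-21-5p overlaps between lines.

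The first tabled comparison asks what the mutant changes in untreated cells. Its values are read counts divided by a size factor per library, which sets the typical miRNA, rather than the total, equal between libraries. On this scale miR-21-5p did not pass the test between the lines. It had 153714 and 164322 normalized counts in EV and 203199 and 138259 in R273H, so the R273H libraries lay on both sides of the EV libraries. On the log2 scale it differed by 0.08 (standard error 0.25, 95% interval -0.45 to 0.60, adjusted p = 0.858, limma), beside a median of 0.10 over all 304 miRNAs tested, and the sign turned with other scalings (-0.08 with edgeR, -0.01 with DESeq2 and in RPM). miR-21-3p had 383 and 426 normalized counts in EV and 254 and 268 in R273H, with no overlap. This is a log2 difference of -0.63 (standard error 0.31, 95% interval -1.27 to 0.01), with an unadjusted p of 0.0548 and an adjusted p of 0.160 in limma, so it did not pass. Of the 304 miRNAs, 61.5% did not overlap between groups of 2 in this comparison. The criteria of the study, an unadjusted p under 0.05 with a change of at least 2-fold, were met by 27.3% in limma. Neither arm of miR-21 met them. The study itself tested with DESeq, so this percentage is not its own yield. An adjusted p under 0.05 in limma was reached by 20.4% of the 304 miRNAs. With edgeR the value for miR-21-3p was -0.81 (adjusted p = 0.0597) and with DESeq2 -0.74 (adjusted p = 0.0907). A lower amount of a miRNA in each cell and fewer cells that make it give the same values in such libraries.

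The etoposide comparisons ask how each line responds to DNA damage. In EV, miR-21-5p had 143197 and 156067 normalized counts untreated and 68123 and 158590 with etoposide. Replicate 1 of the treated pair was low and replicate 2 was level with the untreated pair. This is a log2 fold change of -0.52, with a standard error of 1.12 (adjusted p = 0.993, limma). The libraries of miR-21-5p themselves gave a standard error of 0.61. Without limma's trend of spread on abundance it was 0.53 (adjusted p = 0.910, limma). miR-21-3p was also low in replicate 1 on this scale, with 357 and 404 normalized counts untreated and 202 and 366 with etoposide. Its share of miRNA reads was not much lower there, at 0.0995% against 0.103% to 0.107% in the other EV libraries. All miRNAs of that library summed to 203117.7 normalized counts, against 346327.5 to 378147.5 in the others. The change of miR-21-3p was -0.48 on the log2 scale, with a standard error of 0.35 (adjusted p = 0.902, limma). Of the 296 miRNAs tested in EV, 6.76% met both criteria of the study and 0.676% had an adjusted p under 0.05, and neither arm was among them. Without EV etoposide replicate 1 the value for miR-21-5p was 0.09, and without replicate 2 it was -1.13, so that 1 library decided its sign.

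In R273H, both arms had lower normalized counts in both treated libraries than in both untreated ones, and neither passed the test. miR-21-5p had 263306 and 183695 normalized counts untreated and 156055 and 79183 with etoposide. Its log2 fold change was -0.98 (standard error 0.59, 95% interval -2.27 to 0.30), with an unadjusted p of 0.121 and an adjusted p of 0.630 in limma. miR-21-3p had 330 and 355 normalized counts untreated and 235 and 193 with etoposide, a change of -0.68 with a standard error of 0.31 (unadjusted p = 0.0474, adjusted p = 0.495, limma). An unadjusted p under 0.05 was met by 9.09% of the miRNAs. Groups did not overlap for 39.3% of the 341 miRNAs tested and 6.16% met both criteria, neither arm among them. In limma 0 miRNAs (0.0%) had an adjusted p under 0.05 and 31 had an unadjusted p under 0.05, while 0 passed adjustment in edgeR and 1 in DESeq2. Without R273H etoposide replicate 1 the value for miR-21-5p was -1.47 with an adjusted p of 8.14e-13 in limma, where the lone treated library is taken to vary like the rest, and without replicate 2 it was -0.49.

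**Figure D3:**
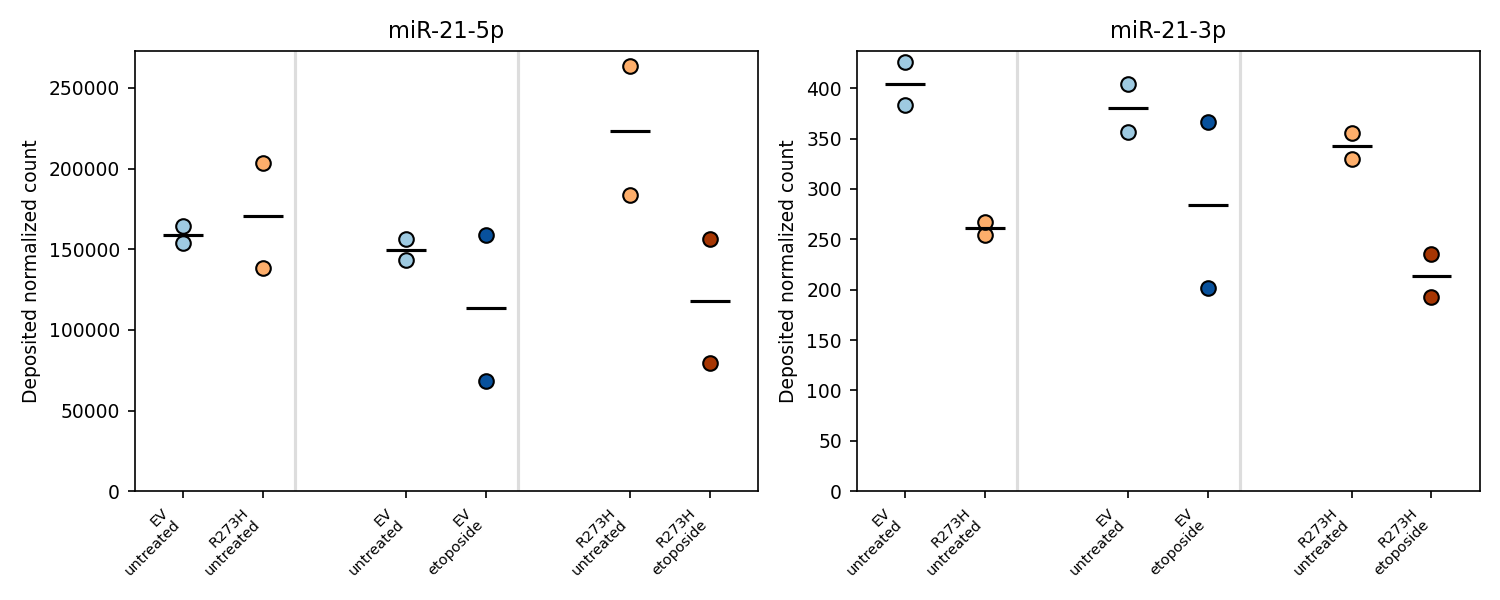
Deposited normalized counts of miR-21-5p (left) and miR-21-3p (right) in the 3 tables, which were normalized separately and are divided by grey lines; points are libraries and black bars are means of 2. miR-21-3p does not overlap between untreated EV (383 and 426) and untreated R273H (254 and 268), and miR-21-5p has its widest spread among the etoposide-treated EV libraries (68123 and 158590).

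The lower values of miR-21-5p with etoposide had counterparts among the other abundant miRNAs on the deposited scale. Of the 10 most abundant miRNAs after miR-21-5p, a group formed after the values were seen, all 10 had lower mean log2 values with etoposide in EV (median log2 fold change -0.44) and all 10 in R273H (median -0.66). The remaining miRNAs had medians of -0.0045 in EV, over 285 miRNAs, and 0.03 in R273H, over 330. Of these remaining miRNAs, 146 were lower in EV and 153 in R273H. With edgeR 9 of the 10 were lower in EV and 10 in R273H, beside 147 and 156 of the remaining miRNAs. In RPM 5 of the 10 were lower in each line (medians -0.01 in EV and 0.05 in R273H). There 63 of the remaining 285 were lower in EV and 38 of the remaining 330 in R273H (medians 0.40 and 0.72). Among the 5 next to miR-21-5p, miR-29b-3p had 18850 and 17084 normalized counts in untreated EV and 7269 and 2413 in treated EV, a fall by 2.10 on the log2 scale (adjusted p = 0.0172, limma). It was the only miRNA of these 5 that passed the adjusted test in either etoposide comparison. In R273H, miR-29b-3p, miR-30c-5p and miR-100-5p met both criteria of the study with values of -1.15, -1.03 and -1.05, each at an adjusted p of 0.495 in limma. miR-23a-3p, of the cluster with miR-24 and miR-27a, and miR-31-5p had values of -0.61 and -0.72 there and did not pass.

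How large the change of miR-21-5p came out depended on what the reads were scaled to. In RPM, the median of all tested miRNAs shifted by 0.42 in EV and by 0.70 in R273H on the log2 scale. On that scale the log2 fold change of miR-21-5p with etoposide was -0.10 in EV and -0.28 in R273H, and that of miR-21-3p was -0.05 and 0.02. Relative to the median miRNA the values for miR-21-5p hardly moved, at -0.48 in EV and -0.99 in R273H in RPM against -0.49 and -1.0 on the deposited scale. The R273H value in RPM had an adjusted p of 0.0028 in limma with the trend of spread on abundance, where the fitted standard error of 0.062 was below the 0.175 given by the libraries of miR-21-5p themselves. Without that trend the adjusted p was 0.757. With reads scaled to the total without miR-21-5p, the value was -0.44, with an adjusted p of 0.0095 with the trend and 0.593 without.

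**Figure D4:**
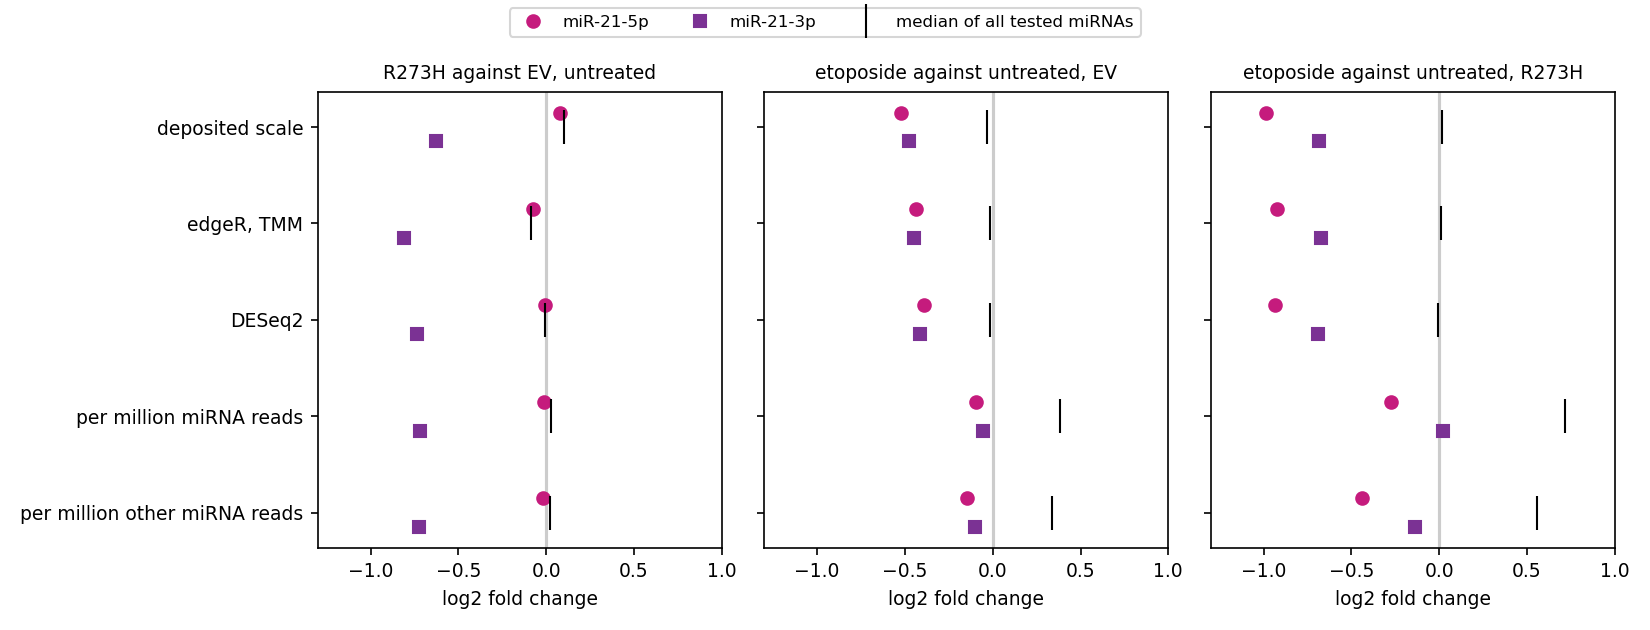
log2 fold change (horizontal axis) of miR-21-5p (circles) and miR-21-3p (squares) in the 3 tabled comparisons under 5 scalings (rows), with the median of all tested miRNAs as a black line; no errors are drawn. In etoposide-treated R273H miR-21-5p moves from -0.98 to -0.28 while the median moves from 0.02 to 0.72.

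With the 8 libraries joined as reads, the lines could also be compared under etoposide, with edgeR on 334 miRNAs. miR-21-3p was lower in R273H, by -1.03 on the log2 scale with a standard error of 0.34 (adjusted p = 0.0162, edgeR), and was among the 22.5% of miRNAs with an adjusted p under 0.05 and the 14.4% that were also lower. The call was lost in RPM, at -0.63 with an adjusted p of 0.434 in edgeR, and also without EV etoposide replicate 2 (-0.61, adjusted p = 0.307), without R273H etoposide replicate 1 (-1.12, adjusted p = 0.105) or without replicate 2 (-0.94, adjusted p = 0.170). Averaged over both treatments, miR-21-3p was lower by -0.92 (standard error 0.24, adjusted p = 0.00072, edgeR), where 36.8% of miRNAs passed, and in RPM the value was -0.67 with an adjusted p of 0.138. miR-21-5p did not pass in either comparison, with values of -0.57 under etoposide (standard error 0.50, adjusted p = 0.461, edgeR) and -0.33 averaged (standard error 0.35, adjusted p = 0.499, edgeR). The response of R273H to etoposide minus that of EV was -0.49 for miR-21-5p (standard error 0.70, adjusted p = 1.00, edgeR) and -0.23 for miR-21-3p (standard error 0.47, adjusted p = 1.00, edgeR), in a comparison where 3.59% of miRNAs met both criteria and neither arm did.

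The ratio of both arms does not depend on the size factor. There were 402 and 386 reads of miR-21-5p per read of miR-21-3p in untreated EV and 337 and 433 in etoposide-treated EV. In R273H there were 799 and 517 untreated and 664 and 410 with etoposide. The 3 highest ratios were R273H libraries, but R273H etoposide replicate 2 lay within the range of EV. The log2 ratio averaged 8.60 ± 0.15 over the EV libraries and 9.17 ± 0.42 over those of R273H (SD, n = 4 each), a difference of 0.58 (exact permutation test, p = 0.0571, adjusted p = 0.171). By line the difference was 0.70 among untreated and 0.45 among treated libraries. By treatment it was -0.17 (exact permutation test, p = 0.600, adjusted p = 0.720). In limma over all hairpins with both arms, paired by name, averaging 10 or more normalized counts, the untreated lines differed by 0.70 (standard error 0.52, adjusted p = 0.414, 50 hairpins, of which 4.0% passed). With etoposide the log2 ratio differed by -0.05 in EV (standard error 0.47, adjusted p = 0.998, limma, 40 hairpins) and by -0.30 in R273H (standard error 0.79, adjusted p = 0.885, limma, 58 hairpins), where 0.0% of hairpins passed in limma (at an unadjusted p under 0.05, 3 in EV and 0 in R273H).

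Strand choice in miR-21 was one-sided, and its rank was taken only among hairpins whose weaker arm was measured, which leaves out 5p or 3p arms with few reads however one-sided their hairpin is. Arms were paired by name, so hairpins whose weaker arm carries a locus number were left out too. One was miR-29b, where miR-29b-3p had a mean share of 6.30%, against 0.0044% for miR-29b-1-5p and 0.00043% for miR-29b-2-5p. The rank of miR-21 therefore holds only for the pairs compared. Of 56 hairpins with both arms at a mean of at least 10 reads over the 8 libraries, 37 had more 5p than 3p reads, and among these 56 only miR-100 and let-7a had a mean log2 ratio further from 0 than miR-21. miR-21 had 8.88, miR-100 9.29 and let-7a 9.20. For let-7a the 5p reads were set against let-7a-3p alone, with a mean share of 0.0050%. This leaves out let-7a-2-3p, at 0.0021%, so the ratio of let-7a is overstated and its place above miR-21 is not secure. The next 3 below were miR-10a at 7.19, miR-30a at 6.83 and miR-151a at 5.75. On this incomplete pair let-7a differed between the lines, at 10.6 in EV and 7.78 in R273H, and its ratios did not overlap, while those of miR-21 did. The 3p arm of miR-21 had a mean of 312 reads, against 16.2 for miR-100 and 21.0 for let-7a, so its ratio rests on more reads of the weaker arm. Of the 56 hairpins, 19.6% had ratios that did not overlap between lines.

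**Figure D5:**
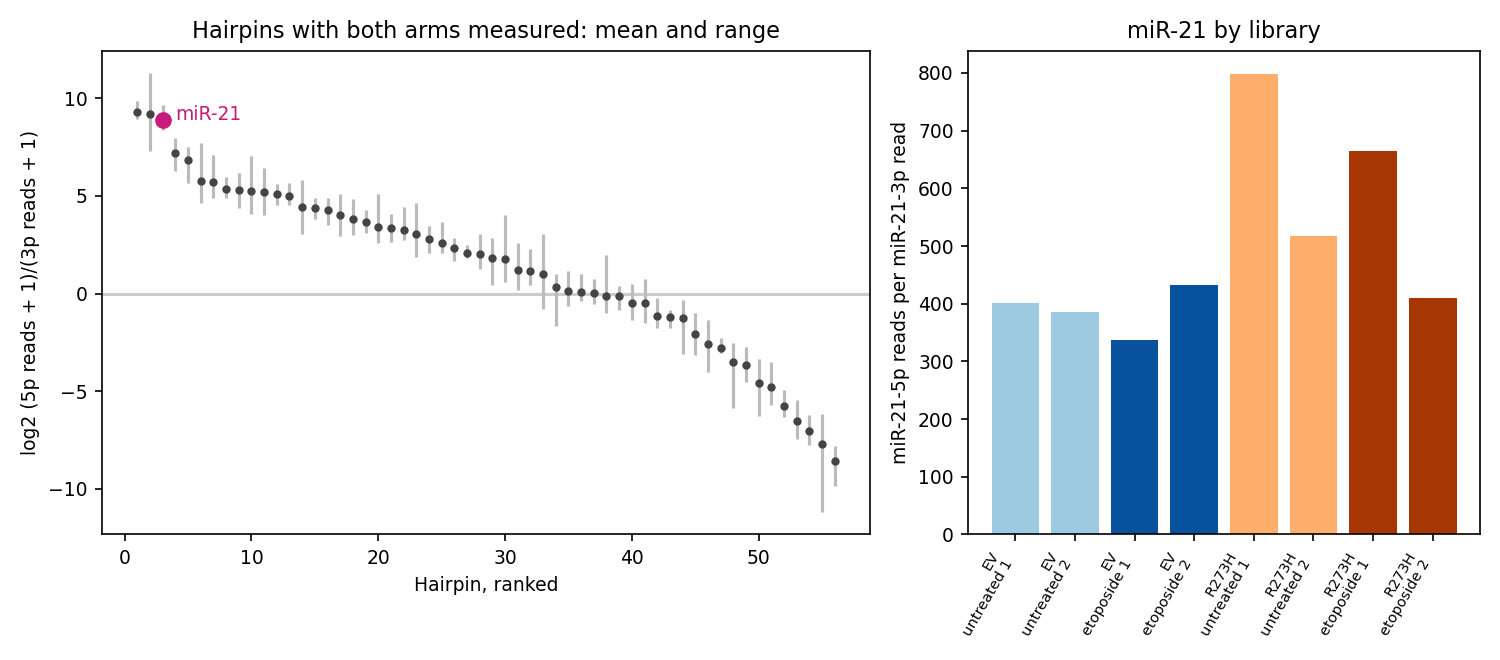
Left, log2 ratio of 5p to 3p reads of 56 hairpins, ordered by their mean over the 8 libraries (dots) with the lowest to highest library (bars). Right, reads of miR-21-5p per read of miR-21-3p in each library, which run from 337 to 433 in EV and from 410 to 799 in R273H.

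miR-590-5p, which shares the seed printed above, added little to the reads with that seed. It had 1857, 836, 817 and 955 reads in the EV libraries and 1967, 1348, 2136 and 2071 in the R273H libraries, in the order untreated then treated. This was 0.592% to 1.94% of the reads of miR-21-5p. Its share of miRNA reads was 0.264% to 0.384% in EV and 0.331% to 0.594% in R273H, so the lines overlapped. It did not pass in any comparison, with log2 fold changes of 0.25 between untreated lines (adjusted p = 0.595, limma), -0.52 with etoposide in EV (adjusted p = 0.899, limma), -0.31 with etoposide in R273H (adjusted p = 0.855, limma) and 0.31 between the treated lines (adjusted p = 0.597, edgeR).

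Likeness to the members was measured as Pearson's r of log2 reads, scaled to the total without miR-21-5p, over the 8 libraries, among 98 other miRNAs with a mean of at least 100 reads. These points share 2 lines and 1 denominator, so the values describe the libraries and no p is given. The levels most like those of miR-21-5p were of miR-23a-3p (r = 0.70), miR-221-3p (0.57) and miR-222-3p (0.55), and the least like was miR-125a-5p (-0.90). For miR-21-3p the most like were miR-31-5p (0.91), miR-625-5p (0.89) and miR-378a-3p (0.87), and the least like was miR-20a-5p (-0.95). The arms of miR-21 had an r of 0.35 with each other. The median r over the candidates was -0.38 for miR-21-5p and 0.08 for miR-21-3p.

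miRNAs whose genes are known to be induced by AP-1, STAT3 or NF-kB, as that of miR-21 is, were set beside it. Of 6 such miRNAs, 5 passed the filter between untreated lines. There miR-9-5p fell by 1.55 on the log2 scale (adjusted p = 0.0052, limma), while miR-155-5p, miR-221-3p, miR-222-3p and miR-181b-5p did not pass, with values from -0.65 to 0.88. The median of the 5 was 0.14, beside 0.10 over all 304 miRNAs. Under etoposide 1 of the 6 was higher and 2 were lower in R273H at an adjusted p under 0.05 in edgeR, which 22.5% of all 334 miRNAs reached. The lower ones were miR-9-5p (-1.61, adjusted p = 0.000156, edgeR) and miR-222-3p (-1.02, adjusted p = 0.0314, edgeR). The higher one was miR-146a-5p, with 0 reads in each EV library, which allows shares of up to 0.000559% to 0.00141%, and with 4, 5, 11 and 13 reads in the R273H libraries. It passed the filter of a mean of at least 3 reads only through the R273H libraries, so its call says nothing about the list. The limits in EV also span its shares in untreated R273H, 0.000885% and 0.00123%. With etoposide, 0 of the 5 tested in EV and 0 of the 6 tested in R273H had an adjusted p under 0.05 in limma, and at an unadjusted p under 0.05 there were also 0.

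Of 10 miRNAs often raised in lung carcinoma, 4 were higher and 1 was lower in untreated R273H at an adjusted p under 0.05 in limma, a threshold that 20.4% of all 304 miRNAs passed. The higher ones were miR-17-5p (1.25), miR-18a-5p (1.65), miR-19a-3p (0.85) and miR-20a-5p (1.43), which come from 1 cluster, and the lower one was miR-31-5p (-0.94). miR-19b-3p and miR-92a-3p of the same cluster (0.44 and 0.27), miR-182-5p (-0.35), miR-183-5p (-0.49) and miR-210-3p (1.46, adjusted p = 0.0612, limma) did not pass. The median of the 10 was 0.65, beside 0.10 over all miRNAs. Under etoposide miR-17-5p, miR-18a-5p and miR-20a-5p were again higher in R273H (1.23, 1.55 and 1.49) and miR-31-5p lower (-1.26), each with an adjusted p under 0.05 in edgeR, as had 22.5% of all miRNAs. With etoposide the median of the 10 was -0.36 in EV and -0.26 in R273H, and the smallest adjusted p was 0.540 in EV (miR-18a-5p, -0.83) and 0.579 in R273H (miR-19b-3p, -0.76), both in limma. miR-21-5p, the best known of the miRNAs raised in this cancer, exceeded each of the 10 in every library. The nearest, miR-31-5p, had 6.38% to 14.3% of its reads.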

How the data were processed

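The study called the 2 libraries of each group biological replicates, and the labels do not say whether they came from separate cultures, so p-values measure the spread between these libraries. The authors sequenced small RNA on an Ion PGM, kept reads of 17 to 35 bases with a Phred score of at least 20, aligned them to miRBase 20 with SHRiMP and to GRCh37 with Novoalign, and counted them. In the deposited signal, reads of each library were divided by its DESeq size factor, separately in each of 3 tables. In each library 100.0% of the values were whole multiples of 1 read (tolerance 0.005, the rounding of the tables), so reads were recovered. The deposited tables of comparisons hold the authors' own fold changes and p-values and were not used.

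Normalized counts were tested within each table with limma 3.58.1 (R 4.3.3, trend) on log2(normalized count + 1), so changes of low miRNAs are understated, for miRNAs with a mean of at least 3. The recovered reads of 8 libraries were tested by quasi-likelihood in edgeR 4.0.16 (TMM), with DESeq2 1.42.0 as an alternative. This edgeR test gives no standard error, so those printed for edgeR are the absolute log2 value divided by the square root of its F statistic. p-values were adjusted by Benjamini-Hochberg over all miRNAs tested. Shares and ratios were compared with exact two-sided permutation tests over 4 against 4 libraries, since 2 against 2 cannot go below 0.333. The fits were tested on simulated data.

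Named are both arms, miRNAs with the seed of miR-21-5p, the 5 next by share, and the 3 most and 1 least like each arm. Also named are the 3 hairpins nearest in arm ratio on each side among arms paired by name (above miR-21 there were 2), 2 lists by induction and by cancer, and markers of other cells. RefSeq gave no mature sequence for miR-21-3p, so miRNAs with its seed were not sought. The members and lists were chosen with earlier results of these data known. The comparison averaged over treatment, the share of miR-21-3p and fits without the trend in RPM (reads scaled to equal miRNA totals, with or without miR-21-5p) were added after the data were seen. Positions are from GENCODE 44 on GRCh37, folds from RNAfold 2.7.2. Other steps used scipy 1.17.1, pandas 2.3.3 and numpy 2.4.6 in Python 3.11.15.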

Additional observations from a re-analysis of the deposited data

How the results depend on the processing

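Apart from single libraries left out, 117 of 132 alternative log2 values from limma, edgeR or DESeq2 kept their sign and their side of an adjusted p of 0.05. For miR-21-5p between untreated lines the log2 fold change was -0.08 with edgeR, -0.01 with DESeq2 and in RPM (with and without limma's trend), and -0.02 in RPM without miR-21-5p (with and without it). For miR-21-5p with etoposide in R273H, -0.28 in RPM and -0.44 in RPM without miR-21-5p passed with the trend, not without. For miR-21-3p with etoposide in R273H the value was 0.02 in RPM with and without the trend, and its difference of responses was 0.07 in RPM. miR-21-3p between treated lines no longer passed at -0.87 without a filter (adjusted p = 0.176, edgeR), -0.63 in RPM and -0.77 in RPM without miR-21-5p, and averaged over treatment at -0.67 in RPM. The cause was not tested.

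With 1 library left out in turn, log2 fold changes of miR-21-5p ran from -0.20 to 0.35 between untreated lines, -1.13 to 0.09 with etoposide in EV, -1.47 to -0.49 with etoposide in R273H, -1.08 to 0.09 between treated lines, -1.10 to 0.17 for the difference of responses and -0.55 to 0.00 averaged. Its signs turned without R273H untreated replicate 1 (-0.20), without EV etoposide replicate 1 (0.09 in EV) and without EV etoposide replicate 2 (0.09 between treated lines, 0.17, 0.00). For miR-21-3p they ran from -0.91 to -0.05 with etoposide in EV, -1.36 to -0.61 between treated lines and -0.55 to 0.20 for the difference of responses, with the last value without EV etoposide replicate 2. The log2 arm ratio ran from 0.39 to 1.02 between untreated lines, -0.23 to 0.14 with etoposide in EV and -0.65 to 0.05 in R273H, and by treatment over 8 libraries from -0.363 to 0.0498. The difference in share of miR-21-3p ran from -0.0413 to -0.0348 percentage points by line, where 3 libraries against 4 cannot go below an exact permutation p of 0.0571, and from -0.0114 to 0.00756 by treatment. The difference in share of miR-21-5p ran from -4.87 to -0.351 by line and from -7.35 to -2.71 by treatment.

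The number of miRNAs that met both criteria of the study was 80 in RPM and 76 in RPM without miR-21-5p between untreated lines, 12 and 15 with etoposide in EV, and 36 and 41 in R273H. On the deposited scale these were 83, 20 and 21, and with DESeq2 59, 12 and 10. With etoposide in R273H all 36 were higher, against 10 higher and 11 lower on the deposited scale, and in EV 10 were higher and 2 lower, against 7 and 13. Replicate numbers were treated as names, and the labels do not say whether same-numbered libraries were paired. Deviations of same-numbered libraries correlated at -0.147 to 0.136. In R273H the share of miR-21-5p was higher in replicate 1 in both treatments, and that of miR-21-3p was lower. With a replicate block the value for miR-21-5p with etoposide in R273H was -0.98. Its standard error was 0.24, against 0.59 without the block (unadjusted p = 0.0057, adjusted p = 0.356, limma). For miR-21-3p between treated lines the value was -1.0 (adjusted p = 0.0437, edgeR). The replicate block changed no call of either arm at an adjusted p under 0.05. Depth limits miR-21-3p, with 212 to 553 reads per library, more than miR-21-5p.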
